A study of Rattus norvegicus with 12 samples.

Results

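The genes described here are 10 transcripts of the endoplasmic reticulum (ER) stress response, chosen by their gene symbols from a table of 34700 genes: Hspa5, Hsp90b1, Calr, Pdia4, Xbp1, Herpud1, Atf4, Ddit3, Trib3 and Asns. They were measured by paired-end mRNA sequencing in the left ventricle of 12 male Sprague-Dawley rats, 3 in each of 4 groups. Rats were operated on at 8 weeks of age, and their hearts were taken 12 weeks later. In the HF group the left anterior descending coronary artery was tied to cause an infarct and heart failure, and the rats stayed sedentary. HFE rats had the same ligation and then trained on a treadmill (60 min/day, 5 days/week) for 8 weeks. BAIBA rats had the ligation and received β-aminoisobutyric acid (BAIBA), a small molecule that muscle releases during exercise, by gavage at 75 mg/kg/day for 8 weeks. In Sham rats the thread was passed without tying it, and these rats were also sedentary. Surviving rats were divided into groups by echocardiography 4 weeks after surgery. The methods describe an exercise study and a BAIBA study, each with Sham and HF rats, and the labels do not say from which of them the Sham and HF hearts came. By the methods, Sham and HF rats of the BAIBA study were given water by gavage. The supplement instead describes BAIBA treatment for the Sham and HF groups of that study, and this conflict is not resolved. The tissue came from the anterior wall. The methods name the zone around the infarct for BAIBA rats alone, while the account of the results in the paper names it for HF and BAIBA rats, so the groups that shared this site are not certain.

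Secreted and membrane proteins fold in the ER with the help of chaperones. When unfolded proteins build up, the sensors IRE1, PERK and ATF6 start the unfolded protein response. IRE1 splices Xbp1 mRNA and ATF6 is cut to an active factor, and both routes raise chaperone and degradation genes. PERK phosphorylates the initiation factor eIF2alpha, which slows translation but favours that of Atf4, and ATF4 then switches on genes of amino acid supply and, with prolonged stress, of cell death. In the heart the response is known from ischemia and pressure overload. Counts per gene do not separate spliced from unspliced Xbp1 mRNA and do not show the translation of Atf4.

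The libraries held between 14812541 and 19732588 counts on genes. Cardiomyocyte markers were abundant in every rat (10 markers, summed level 47881 to 58435 CPM, counts scaled to a common library total with TMM, which adjusts for differences in library composition). HF rats were lower in this sum (48062 to 50297 CPM) than Sham rats (57122 to 58435 CPM). So were HFE rats (48075 to 55350 CPM) and BAIBA rats (47881 to 55850 CPM). Of the 10 markers, 3 were lower in every HF than every Sham rat and 0 higher (all genes 6.55% and 5.25%). The sum weighs abundant markers most, and single markers did not all follow it. Against Sham, the median log2 fold change of the 10 was -0.05 in HF, 0.09 in HFE and -0.12 in BAIBA rats. In bulk tissue, fewer cells of a type and less RNA per cell cannot be told apart. Some libraries stood apart in markers of other cells. In BAIBA rat 1, the 5 epicardial and mesothelial markers summed to 80.7 CPM and the 10 markers of activated fibroblasts to 2114 CPM, the highest of the 12 rats. In HF rat 1, the 5 B and plasma cell markers in the table summed to 18.2 CPM, against 1.8 to 10.8 CPM in the other rats. The 5 adipocyte markers summed to 29.8 CPM in HF rat 1 and 28.6 CPM in BAIBA rat 3, against 3.60 to 12.5 CPM elsewhere. The 4 atrial cardiomyocyte markers varied widely within each group, with sums from 12.3 CPM (BAIBA rat 2) to 538 CPM (HF rat 3).

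Per length, the 10 genes fell into an abundant and a scarce set. On the FPKM scale (fragments scaled by gene length and library total), the medians over 12 rats were 131 for Calr, 125 for Hspa5, 88.7 for Herpud1, 66.3 for Hsp90b1, 61.1 for Atf4, 37.5 for Ddit3, 34.1 for Xbp1 and 14.5 for Pdia4. Trib3 and Asns stood far below, at 0.586 and 0.454 FPKM. The ranges over rats of Calr and Hspa5 overlapped, as did those of Herpud1 and Hsp90b1, of Hsp90b1 and Atf4, of Ddit3 and Xbp1, and of Trib3 and Asns. Hsp90b1, Calr and Pdia4 were the steadiest of the chaperones, with a highest CPM 1.30, 1.33 and 1.26 times the lowest. Herpud1 spread 1.89-fold, Trib3 3.43-fold and Asns 3.77-fold over the 12 rats, and the last of these rest on 8 to 26 counts (Trib3) and 9 to 38 counts (Asns) per rat.

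None of the 10 genes was a differentially expressed gene (DEG, Benjamini-Hochberg adjusted p under 0.05 and absolute log2 fold change over 1) in any of 6 comparisons by edgeR's quasi-likelihood test, and all 10 passed the filter on low counts in each. None had an adjusted p under 0.05 by that test either, and all 60 absolute log2 fold changes were under 1, so the limit on the fold change alone would have left them out. Few genes of any kind were called. The share of all tested genes that were DEGs was 0% for HF against Sham, 0% for BAIBA against HF, 0% for HFE against HF, 0% for HFE against Sham, 0.0402% for BAIBA against Sham (6 of 14920) and 0.0808% for BAIBA against HFE (12 of 14844, and 32 with the replicate number as a block). With 3 rats a group, the exact permutation test cannot give a p below 0.1. Differences are therefore described below by each rat's value, the log2 fold change with its standard error (SE), and whether the rats of both groups overlap. The plot of levels by rat shows all 10 genes.

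**Figure D1:**
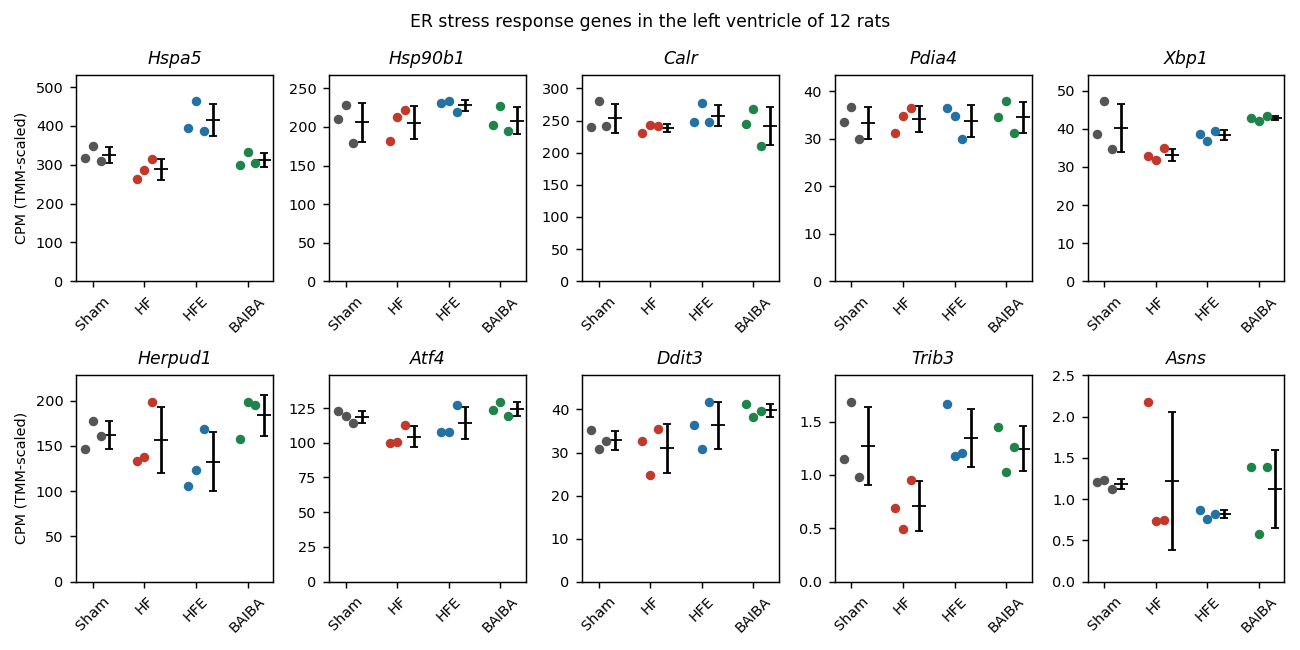
Each panel plots one gene, with CPM on a linear axis from 0 and 3 points per group for the single rats; the bar beside them gives the mean and SD (n = 3). In Hspa5 the 3 HFE rats lie between 388 and 463 CPM, above the other 9 rats, and in Xbp1 the BAIBA rats lie between 42.2 and 43.4 CPM, above the HF rats.

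Hspa5 (ENSRNOG00000018294) encodes BiP, the main ER chaperone, which also holds the stress sensors inactive, and its transcript was highest in exercised rats. Hspa5 measured 317, 350 and 311 CPM in Sham rats and 262, 287 and 315 CPM in HF rats. It measured 394, 463 and 388 CPM in HFE rats. In BAIBA rats it measured 299, 333 and 304 CPM. Every HFE rat was above all other 9 rats, whereas Sham, HF and BAIBA rats overlapped. The log2 fold change of Hspa5 was 0.53 (SE 0.11, 95% CI 0.28 to 0.78) for HFE against HF, or 415 ± 41.7 against 288 ± 26.6 CPM (mean ± SD, n = 3). By unadjusted p (0.00145) Hspa5 ranked 31 of 14938 genes, but its adjusted p by edgeR was 0.627. DESeq2 gave an adjusted p of 0.0118 for the same contrast and a log2 fold change of 0.52, below the limit on the fold change. Over all alternatives the log2 fold change lay between 0.43 and 0.59 and the adjusted p between 0.0118 and 0.827.

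The same gene was also higher in HFE than in Sham rats, with a log2 fold change of 0.35 (SE 0.09) and an edgeR adjusted p of 0.289. For BAIBA against HFE the Hspa5 log2 fold change was -0.41 (SE 0.10), with an adjusted p of 0.229 by edgeR, 0.116 with the replicate block and 0.0326 by DESeq2. These comparisons share the HFE rats, so they are not separate evidence. HF rats had a lower mean Hspa5 level than Sham rats (log2 fold change -0.18, SE 0.10), within overlapping ranges. Beside the Hspa5 difference between HFE and HF, the summed level of 8 macrophage markers was lower in HFE rats (76.6 to 106 CPM) than in HF rats (109 to 202 CPM). The cardiomyocyte sum overlapped (48075 to 55350 CPM against 48062 to 50297 CPM). Of its 10 markers, 5 were higher in every HFE than every HF rat and 0 lower (all genes 8.26% and 6.16%). Against Sham, HFE rats were lower without overlap in the summed cardiomyocyte, activated fibroblast and macrophage markers. Single cardiomyocyte markers went both ways in that comparison. By edgeR's unadjusted p under 0.05, 5 of the 10 were higher and 2 lower (all genes 6.04% and 5.15%). BAIBA rats were higher than HFE rats without overlap in the macrophage, the epicardial and mesothelial, and the erythroid sums. The part of these cells in the Hspa5 differences was not tested. Without HF rat 1, which stood apart in B and plasma cell markers, the log2 fold change of Hspa5 for HFE against HF was 0.46.

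Hsp90b1 (ENSRNOG00000026963, the chaperone GRP94), Calr (ENSRNOG00000003029, calreticulin, a calcium-binding lectin chaperone) and Pdia4 (ENSRNOG00000006228, a protein disulfide isomerase) had smaller log2 fold changes between HFE and HF than Hspa5. Hsp90b1 was 206 ± 25.4 CPM in Sham, 206 ± 21.1 CPM in HF, 228 ± 7.04 CPM in HFE and 208 ± 17.4 CPM in BAIBA rats (SD, n = 3). Its log2 fold change for HFE against HF was 0.15 (95% CI -0.07 to 0.37), with overlapping rats. Calr measured 231, 243 and 241 CPM in HF rats and 248, 277 and 248 CPM in HFE rats. The Calr groups did not overlap, but the log2 fold change was only 0.11 (SE 0.08). Pdia4 was level, with 33.4 ± 3.38 CPM in Sham, 34.2 ± 2.76 CPM in HF, 33.8 ± 3.42 CPM in HFE and 34.6 ± 3.27 CPM in BAIBA rats. The 95% CI of its log2 fold change was -0.27 to 0.24 for HFE against HF and -0.26 to 0.29 for BAIBA against HF.

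Rats with more Hspa5 than the mean of their group tended to have more of these 3 chaperones. After group means were removed from log2(CPM + 0.1), Pearson's r with Hspa5 over the 12 rats was 0.755 for Hsp90b1 (Spearman's rho 0.762), 0.699 for Calr (rho 0.566) and 0.693 for Pdia4 (rho 0.643). Asns ran the other way, with r of -0.630 (rho -0.601). By permutation of rats within groups (every assignment, 2-sided) the Pearson p was 0.00617 for Hsp90b1, 0.0116 for Calr, 0.0440 for Pdia4 and 0.0409 for Asns. Adjusted over the 9 relations computed, these permutation p-values were 0.0521, 0.0521, 0.0990 and 0.0990, so no Pearson relation passed 0.05. By Spearman's rho the permutation p was 0.00231, 0.0301, 0.0478 and 0.0610 in the same order, and the adjusted value was 0.0208 for Hsp90b1, 0.135 for Calr and 0.137 for both Pdia4 and Asns. Without the 2 rats farthest from the median (HFE rat 2 and HF rat 3), r was 0.832 for Hsp90b1, 0.741 for Calr, 0.732 for Pdia4 and -0.660 for Asns. With counts scaled by library size alone, r for Hsp90b1 was 0.647 (permutation p adjusted 0.264) and that for Asns was -0.286. For the other 5 genes r lay between -0.360 (Ddit3) and 0.377 (Herpud1), and each had an adjusted permutation p of at least 0.539.

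**Figure D2:**
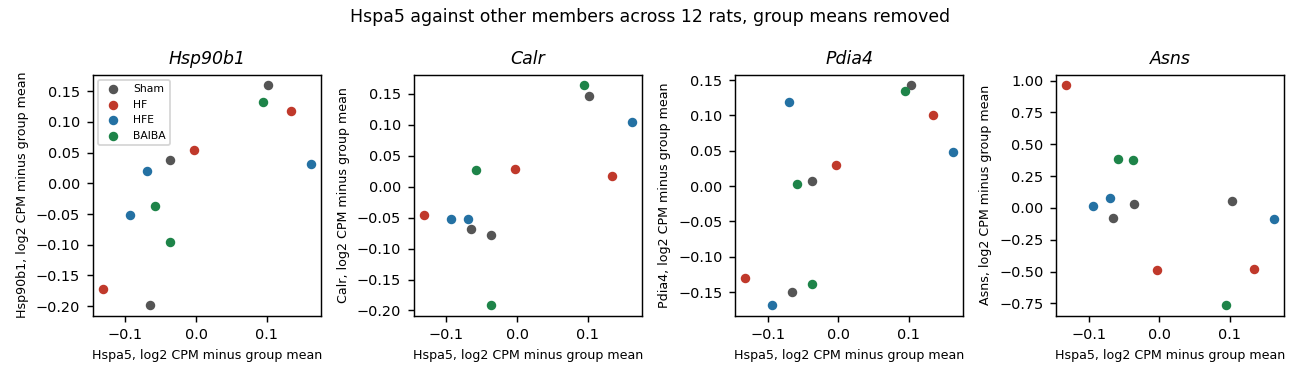
Each panel plots log2 CPM of one gene against that of Hspa5, both minus their group mean, with 1 point per rat coloured by group (12 rats). Hsp90b1, Calr and Pdia4 run upward with Hspa5 (r 0.755, 0.699 and 0.693), and Asns runs downward (r -0.630).

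The promoters of 4 of the 10 genes hold an ER stress element, the sequence to which NF-Y and ATF6 or XBP1 bind. This motif is CCAAT, 9 bases of any kind and CCACG, searched on both strands from 250 bases before to 50 bases after the start site (RefSeq, GRCr8). It stood in 22 of 33469 promoters of that length (0.0657%), and all 10 genes were found in that set. The matches are shown because they separate genes with and without the letters among the 10 genes. The chaperone genes Hspa5, Hsp90b1 and Calr and the transcription factor gene Xbp1 have them. No match to any of the 4 motifs searched was found in Pdia4, Atf4, Ddit3 or Asns. The capitals mark the fixed letters of the motif, with 10 flanking bases on each side, each written 5′ to 3′ on the strand of its gene.
Hspa5: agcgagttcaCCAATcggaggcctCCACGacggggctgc
Hsp90b1, far site: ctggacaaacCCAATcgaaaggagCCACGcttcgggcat
Hsp90b1, near site: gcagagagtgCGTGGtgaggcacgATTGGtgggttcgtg
Xbp1: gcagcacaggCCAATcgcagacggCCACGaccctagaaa
Calr: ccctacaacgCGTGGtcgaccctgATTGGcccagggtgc
These lie at chr3:38452963-38453001 (plus strand) for Hspa5, chr7:23012441-23012479 and chr7:23012337-23012375 (minus strand) for Hsp90b1, chr14:84604548-84604586 (plus strand) for Xbp1 and chr19:40213125-40213163 (plus strand) for Calr. The motif begins 43 bases before the start site in Hspa5, 176 and 72 in Hsp90b1, 65 in Xbp1 and 232 in Calr, so all lie upstream of the transcript. In Calr and the near site of Hsp90b1 it reads in the reverse direction. A match is a description of letters, and the binding of a factor was not measured.

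Xbp1 (ENSRNOG00000010298), the transcription factor that IRE1 activates, was lowest in HF rats and highest in BAIBA rats among the infarcted groups. It measured 32.9, 31.9 and 35.0 CPM in HF rats, 38.7, 36.8 and 39.4 CPM in HFE rats and 42.9, 42.2 and 43.4 CPM in BAIBA rats. The 3 infarcted groups did not overlap with one another, while the Sham rats, at 38.8, 47.2 and 34.7 CPM, were widely spread and their range overlapped with those of all 3. The Xbp1 log2 fold change for BAIBA against HF was 0.36 (SE 0.09, 95% CI 0.15 to 0.58), with an unadjusted p of 0.00493, rank 68 of 15039 and an edgeR adjusted p of 0.851. It was 0.37 without BAIBA rat 1, whose tissue had the highest epicardial and fibroblast marker levels, and lay between 0.33 and 0.40 over all alternatives. For HFE against HF it was 0.20 (SE 0.08, edgeR adjusted p 0.642). For BAIBA against HFE it was 0.16 (SE 0.09, edgeR adjusted p 0.607). For HF against Sham it was -0.28 (SE 0.12), with overlapping rats.

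Herpud1 (ENSRNOG00000018796) encodes an ER membrane protein of the degradation machinery. In the HF and HFE groups, 1 rat stood above its group mates. Herpud1 measured 133, 138 and 199 CPM in HF rats, 105, 124 and 169 CPM in HFE rats and 158, 199 and 195 CPM in BAIBA rats, with 147, 178 and 161 CPM in Sham rats. The ranges of all 4 groups overlapped. Herpud1 had a lower mean in HFE than in HF rats (log2 fold change -0.24, SE 0.22), and its interval of -0.76 to 0.28 spans 0. Its difference was larger for BAIBA against HFE, at 0.47 (SE 0.18), with an edgeR adjusted p of 0.450 and of 0.151 with the replicate block. The Herpud1 promoter lacks the longer element but holds its shorter form (ER stress element II: ATTGG, 1 base of any kind, CCACG), found in 17 promoters (0.0508%). It also holds a match to the ATF4 response element, which is shown with Trib3 below.
Herpud1: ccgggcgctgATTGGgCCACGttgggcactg
This stretch is at chr19:10614811-10614841 (minus strand, GRCr8), and the motif begins 124 bases before the start site. A further motif, the XBP1/ATF6 element (TGACG followed directly by TGG), was found in 199 promoters (0.595%) and in none of the 10.

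Among the genes of the PERK branch, Atf4 (ENSRNOG00000017801, its transcription factor) and Ddit3 (ENSRNOG00000006789, CHOP, a factor tied to cell death in prolonged stress) were higher in every BAIBA rat than in every HF rat. Atf4 measured 100, 100 and 113 CPM in HF rats and 124, 130 and 120 CPM in BAIBA rats, a log2 fold change of 0.25 (SE 0.10). Ddit3 measured 32.7, 24.7 and 35.5 CPM in HF rats and 41.4, 38.3 and 39.7 CPM in BAIBA rats, a log2 fold change of 0.36 (SE 0.15). Neither passed the adjusted test (edgeR adjusted p 0.851 for both), and the Ddit3 value was 0.22 without HF rat 2, its lowest rat. The HFE mean lay between those of HF and BAIBA rats for both genes, and HFE rats overlapped with both groups, at 108, 108 and 127 CPM for Atf4 and 36.4, 30.7 and 41.8 CPM for Ddit3. In Sham rats Atf4 measured 123, 119 and 114 CPM, above every HF rat (HF against Sham -0.19, SE 0.09, edgeR adjusted p 0.805). Ddit3 in Sham rats (35.2, 30.9 and 32.6 CPM) was below every BAIBA rat, with a log2 fold change of 0.28 (SE 0.10) for BAIBA against Sham and an edgeR adjusted p of 0.613.

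Trib3 (ENSRNOG00000007319), a pseudokinase that ATF4 and CHOP induce, was lowest in the HF group. Trib3 had 12, 8 and 18 counts in HF rats, against 20, 26 and 15 in Sham rats, 25, 17 and 19 in HFE rats and 26, 16 and 21 in BAIBA rats. After scaling these were 0.688, 0.491 and 0.953 CPM in HF rats, while the lowest rat of any other group was at 0.985 CPM (a Sham rat). The 3 HF rats were thus the lowest of the 12, by a margin between HF rat 3 and that Sham rat of less than the spread within either group. The log2 fold change of Trib3 was -0.83 (SE 0.40) for HF against Sham, 0.91 (SE 0.38) for HFE against HF and 0.80 (SE 0.40) for BAIBA against HF, with edgeR adjusted p-values of 0.808, 0.648 and 0.851. These comparisons share the HF rats. On log2(FPKM + 1), which compresses low values, the value for HFE against HF was 0.30.

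Asns (ENSRNOG00000007546), asparagine synthetase, is another ATF4 target, and it did not follow Trib3. Its levels split within the HF and BAIBA groups. Asns measured 2.18, 0.736 and 0.741 CPM in HF rats and 1.39, 0.577 and 1.39 CPM in BAIBA rats, with 0.865, 0.761 and 0.823 CPM in HFE rats and 1.21, 1.23 and 1.12 CPM in Sham rats. HF rat 1 was the rat with the highest B and plasma cell marker level (18.2 CPM) and adipocyte marker level (29.8 CPM), and their part in its Asns level was not tested. The Asns log2 fold change for HF against Sham was 0.03 (SE 0.49) with that rat and -0.68 without it, and for HFE against HF it was -0.57 (SE 0.51) with it and 0.14 without it. The HFE rats were all below the Sham rats (-0.53, SE 0.31, edgeR adjusted p 0.561). The ATF4 response element (TGATG, 1 base of any kind and AA, searched on both strands) was found in 1332 of the 33469 promoters (3.98%), in Trib3 and Herpud1 but not in Asns, Ddit3 or Atf4 within this window. These 2 matches, both in the reverse direction with the fixed letters in capitals, are shown since they mark the ATF4 targets that carry it.
Trib3: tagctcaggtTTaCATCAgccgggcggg
Herpud1: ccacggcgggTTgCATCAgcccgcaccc
They lie at chr3:161275537-161275564 (Trib3, minus strand) and chr19:10614874-10614901 (Herpud1, minus strand) in GRCr8, and begin 21 and 184 bases before the start sites. At least 1 of the 4 motifs stood in 6 of the 10 genes and in 4.66% of all promoters.

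**Figure D3:**
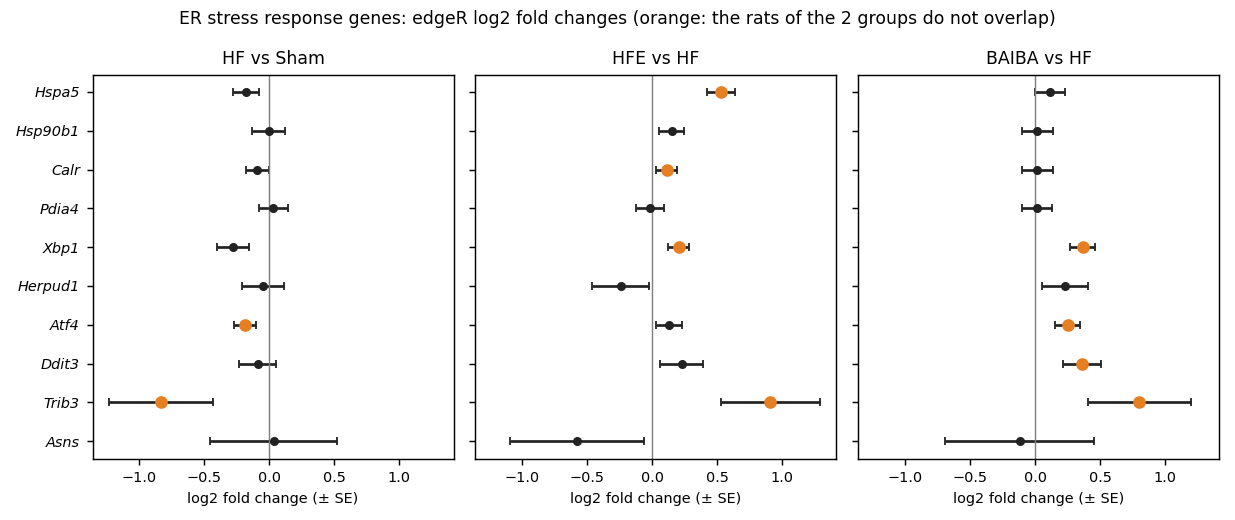
Each panel plots the edgeR log2 fold change of the 10 genes (x axis) with its SE as bars for one comparison (3 against 3 rats); orange marks genes whose rats do not overlap between the groups. Against HF, 4 genes are orange to the right of 0 in HFE rats and 4 in BAIBA rats, and 2 are orange to the left of 0 in HF against Sham.

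Taking the 10 genes by comparison, HF against Sham gave 0 genes at an unadjusted p under 0.05, where 2.47% of all 14957 genes were higher and 3.53% lower by that measure. In 2 of them (Atf4 and Trib3) every HF rat was below every Sham rat, and in 0 above. Over all genes those shares were 6.55% and 5.25%. The median log2 fold change of the 10 was -0.09, against 0.01 over all genes.

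For HFE against HF, 3 of the 10 (Hspa5, Xbp1 and Trib3) were higher at an unadjusted p under 0.05 and 0 lower, where all 14938 genes gave 4.34% and 3.29%. The groups did not overlap in 4 of the 10 (also Calr), all higher in HFE rats, against 8.26% higher and 6.16% lower over all genes. The median was 0.14, against -0.01 over all genes. Only Hspa5 kept an unadjusted p under 0.05 in every alternative. Leaving out any rat but HF rat 3 left 1 of the 10 below that p.

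For BAIBA against HF, 3 of the 10 (Xbp1, Atf4 and Ddit3) were higher at an unadjusted p under 0.05 and 0 lower, where all 15039 genes gave 2.81% and 2.73%. Again 4 (also Trib3) did not overlap, all higher in BAIBA rats, against 6.01% higher and 5.37% lower over all genes. The median was 0.17, against -0.01 over all genes, and 9 of 10 log2 fold changes were above 0 (all genes 48.1%). Cell type markers also differed in mean. Values above 0 were given by 9 of 9 tested activated fibroblast markers (median 0.45), 7 of 8 macrophage markers (median 0.43) and 0 of 5 endothelial markers (median -0.25), none at an unadjusted p under 0.05. Of 5 epicardial and mesothelial markers, 4 were above 0 (median 2.59), none at that p. All 3 tested atrial cardiomyocyte markers were below 0 (median -2.13), 1 of them at that p. Of 10 cardiomyocyte markers, 6 were above 0 (median 0.04) and 1 was lower at that p. The summed levels of all these lists overlapped between BAIBA and HF rats. Their part in the values of the 10 genes was not tested. With 1 rat left out, between 1 and 4 of the 10 were below that p. Xbp1 was below it in every alternative. HFE and BAIBA rats were compared with the same HF rats, in which Hspa5, Hsp90b1, Calr, Xbp1, Atf4, Ddit3 and Trib3 had their lowest group mean.

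The direct comparison and those with Sham gave fewer. For BAIBA against HFE, 1 of the 10 was higher (Herpud1) and 1 lower (Hspa5) at an unadjusted p under 0.05, against 4.68% and 4.88% of all genes. For BAIBA against Sham, 1 was higher (Ddit3) and 0 lower, against 4.13% and 3.28%. For HFE against Sham, 1 was higher (Hspa5) and 0 lower, against 6.04% and 5.15%. The share of all genes without overlap was not computed for these comparisons. Groups of single genes that did not overlap in them are therefore given without that share.

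The wider pathway was described by lists of other ER genes, and in none of them did a gene pass the adjusted edgeR test in any comparison. In HFE against HF the list of chaperones and folding enzymes held the most such genes by unadjusted p: 7 of 18 were higher below 0.05 and 0 lower (all genes 4.34% and 3.29%), and 12 of 18 log2 fold changes were above 0 (all genes 48.3%). In the same comparison, 5 of 10 cardiomyocyte markers were also higher at an unadjusted p under 0.05, and their part in these counts was not tested. The 4 with the lowest p were Pdia6 (a disulfide isomerase, 0.29, SE 0.08), Hyou1 (an ER chaperone of the HSP70 family, 0.42, SE 0.12), Manf (a secreted ER stress factor, 0.41, SE 0.13) and Dnajb11 (a BiP co-chaperone, 0.27, SE 0.09), and in each the groups did not overlap. The list had a median log2 fold change of 0.11. The count was between 4 and 6 when 1 rat was left out and 3 with limma on log2(FPKM + 1). Of 20 genes of ER translocation and glycosylation, 18 were above 0 (all genes 48.3%) and 5 were higher at an unadjusted p under 0.05 (all genes 4.34%), with Srp9 (0.26, SE 0.09), Sec61g (0.26, SE 0.09), Ddost (0.26, SE 0.10) and Rpn1 (0.21, SE 0.08) leading. That count was 0 without HFE rat 2 and 0 without HF rat 3, and 1 with scaling by library size alone.

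The remaining lists held at most 2 genes each at an unadjusted p under 0.05 in HFE against HF, where all genes gave 4.34% higher and 3.29% lower. Among 12 sensors and transducers, Creb3l1 (an ER-anchored transcription factor of matrix secretion) was higher at 0.85 (SE 0.27) and the sensor Atf6 lower at -0.32 (SE 0.13), each without overlap. Of 16 genes of ER-associated degradation 0 reached an unadjusted p under 0.05. Among 19 tested targets of ATF4 and the integrated stress response, Atf5 did, at 0.35 (SE 0.10). Among 6 cell death effectors Bcl2l11 did, at -0.32 (SE 0.13), and 0 of the 6 values were above 0 (all genes 48.3%). Of 3 other eIF2alpha kinases 0 did.

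In BAIBA against HF, 0 genes of the 7 lists reached an unadjusted p under 0.05 in either direction (all genes 2.81% higher and 2.73% lower). Manf (0.30, SE 0.13) and Dnajb9 (a BiP co-chaperone, 0.29, SE 0.13) came nearest among the chaperones, of which 13 of 18 values were above 0 (all genes 48.1%), and Ppp1r15a (GADD34, which restores translation, -0.26, SE 0.12) among the ATF4 targets. In HF against Sham, 3.53% of all genes were lower and 2.47% higher at that p. The genes of the lists that reached it were few and had lower values in HF rats, namely Wfs1 (-0.27, SE 0.09) of the sensors and transducers, Spcs3 (-0.29, SE 0.10) and Ddost (-0.20, SE 0.08) of translocation and glycosylation, Casp12 (-0.57, SE 0.22) of the death effectors and Eif2ak2 (PKR, -0.63, SE 0.19) of the kinases. The chaperones gave 0, with 4 of 18 values above 0 (all genes 51.9%) and a median of -0.10.

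**Figure D4:**
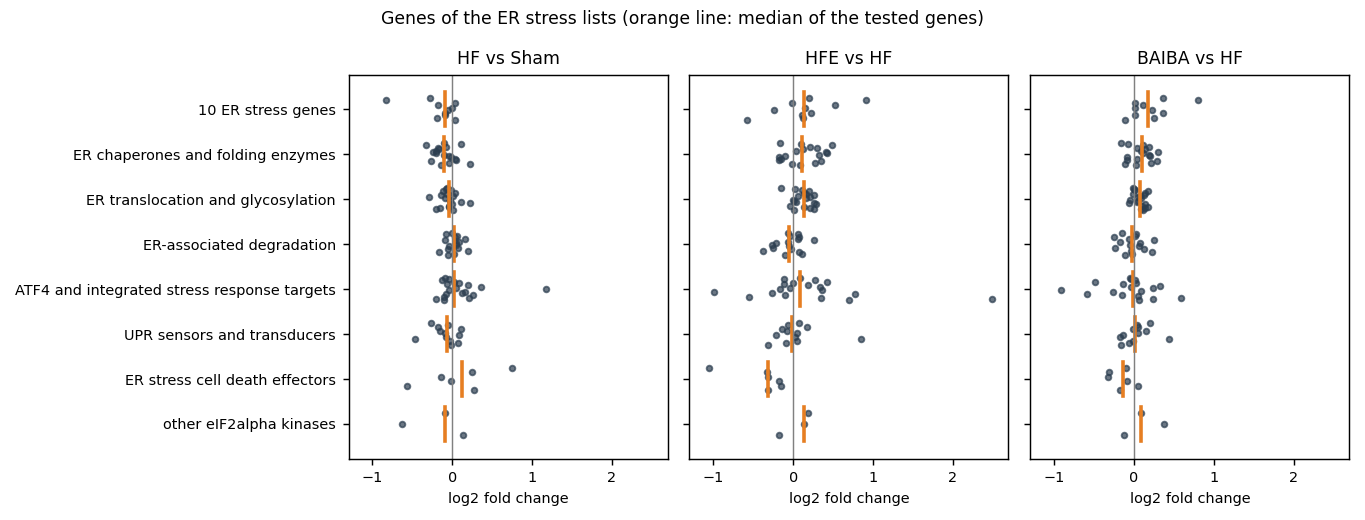
Each point is a tested gene placed at its edgeR log2 fold change (x axis) in the row of its list, and the orange line is the list's median; the 3 panels are HF against Sham (left), HFE against HF (middle) and BAIBA against HF (right) (3 rats a group). In HFE against HF the medians of the 10 genes, of chaperones and of translocation genes lie to the right of 0 (0.14, 0.11 and 0.14), and that of the cell death effectors to the left.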

How the data were processed

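RNA of the left ventricle was sequenced in 12 rats, grouped by the sample labels. The authors trimmed the reads, aligned them with HISAT2, assembled unannotated genes with StringTie and counted reads per gene with featureCounts. Tool versions and the use of strand are not given in the sources used here. The submitters' processing notes list a mouse build (mm9), while the gene identifiers are those of rat. The deposited counts were not normalized, and the authors derived the FPKM values they deposited from these counts and gene lengths.

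Counts were tested with edgeR 4.0.16 in R 4.3.3 (filterByExpr, TMM, robust quasi-likelihood fit of the 2 groups compared, Benjamini-Hochberg adjustment over all genes). CPM used TMM factors of all 12 rats. For each of the 10 genes, an exact permutation test (two-sided, 20 assignments of 6 rats) was run beside it. Alternatives were DESeq2 1.42.0, limma 3.58.1 on log2(FPKM + 1) or log2(FPKM + 0.1), RLE or library-size scaling, other filters, a fit of all 12 rats, the replicate block, and each rat left out. The method was tested on simulated data. The 10 genes, the pathway and marker lists and the motifs were chosen with earlier results of these data known. Named genes were the 10 genes and, per pathway list, up to 4 with the lowest p in each of the 3 comparisons of HF with another group. Replicate numbers come from the labels and mark different animals. Deviations of same-numbered rats correlated over 0.1 in every pair only for BAIBA against HFE (0.173, 0.226 and 0.118). Replicates of a group differed by more than sampling noise (chi-square per degree of freedom 12.6 to 36.4). The labels were read as 1 animal per library. Promoter motifs were searched in RefSeq sequences of GRCr8, the build of all coordinates given.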

Additional observations from a re-analysis of the deposited data

How the results depend on the processing

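No alternative made any of the 10 genes a DEG in any of the 6 comparisons, and the scalings moved the median of all genes by less than 0.1 on the log2 scale. Of 894 alternative log2 fold changes of the 10 genes, 841 kept their sign and 53 did not, all of genes that were not called. Where leaving out 1 rat turned a sign, the log2 fold change over the left-out rats is given as a range. For HF against Sham it was -0.088 to 0.078 for Hsp90b1, -0.68 to 0.30 for Asns, -0.26 to 0.056 for Herpud1, -0.20 to 0.046 for Ddit3 and -0.031 to 0.10 for Pdia4. For HFE against HF it was -0.078 to 0.065 for Pdia4 and -0.84 to 0.14 for Asns. For BAIBA against HF it was -0.061 to 0.076 for Hsp90b1, -0.38 to 0.60 for Asns, -0.067 to 0.11 for Calr and -0.054 to 0.085 for Pdia4. For BAIBA against Sham it was -0.073 to 0.1 for Hsp90b1, -0.17 to 0.23 for Trib3, -0.26 to 0.22 for Asns, -0.026 to 0.13 for Pdia4 and -0.16 to 0.015 for Calr. For HFE against Sham it was -0.090 to 0.33 for Trib3, -0.048 to 0.11 for Pdia4, -0.034 to 0.099 for Calr and -0.16 to 0.057 for Xbp1. For BAIBA against HFE it was -0.23 to 0.073 for Trib3 and -0.048 to 0.11 for Pdia4. The cause was not tested, beyond the smaller number of rats. For Asns in HF against Sham the sign also turned with the replicate block (-0.12) and with limma on log2(FPKM + 1) (-0.013) and log2(FPKM + 0.1) (-0.12). For Hsp90b1 in HF against Sham it turned without a filter (0.0030). For HFE against Sham it turned with library-size scaling (Calr -0.031, Pdia4 -0.036), limma on log2(FPKM + 1) (-0.027 and -0.035) and log2(FPKM + 0.1) (-0.027 and -0.038). The relation of Hspa5 to Atf4 (r 0.137) became -0.317 on log2(FPKM + 1) and -0.316 with library-size scaling. Over all genes DESeq2 called 24 (HF against Sham), 22 (HFE against HF), 31 (BAIBA against HF), 78 (BAIBA against Sham), 72 (HFE against Sham) and 171 (BAIBA against HFE) DEGs, against 0, 0, 0, 6, 0 and 12 by edgeR. The replicate block changed no call among the 10 genes (Hspa5, HFE against HF: 0.53, edgeR adjusted p 0.511). Trib3 and Asns rest on 8 to 38 counts per rat.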

Other observations

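The ER stress element or its short form stood in the promoters of 33 other gene symbols. The search used sequence alone, but its motifs were chosen with earlier results of these data known. Of these 33 symbols, 18 were tested in HFE against HF and 9 had a log2 fold change above 0 (all genes 48.3%). The median was 0.0024, against -0.0094 over all genes. The 5 members of the 10 with either element gave 4 of 5 above 0 and a median of 0.15. The members without either element also gave values on both sides of 0. These were 0.91 for Trib3, 0.23 for Ddit3, 0.13 for Atf4, -0.02 for Pdia4 and -0.57 for Asns. Of the 18 genes outside the 10, 2 were higher in every HFE rat than in every HF rat, against 8.26% of all genes. They were Hyou1 (0.42, SE 0.12) and Dnajb11 (0.27, SE 0.09), ER chaperone genes with the short form. Both also belong to the list of chaperones and folding enzymes above, so this is not separate evidence. Canx, the lectin chaperone calnexin, has the long form and gave 0.08 (SE 0.09), and Dnajc3, an inhibitor of PERK with the long form, gave -0.15 (SE 0.11), both with overlapping rats.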
